A study of Mus musculus with 8 samples.

Results

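The genes described here are 32 genes of cholesterol and fatty acid synthesis, taken by mouse symbol from a list of names and matched to the Ensembl identifiers of the count tables, out of 47069 genes listed there. They comprise 18 enzymes of the sterol branch, 8 enzymes of the fatty acid branch, and 6 genes of regulation and transport. The choice went by name and not by a measured value, but the list was drawn up with earlier results of these data known; each symbol matched 1 identifier. Messenger RNA was sequenced from C57BL/6 mouse embryonic stem (ES) cells of 4 genotypes: unedited wild type (WT), a Pcgf3 knockout (Pcgf3KO), a Pcgf5 knockout (Pcgf5KO), and a Pcgf3/5 double knockout (DKO), the edited lines having been made with Cas9. Cells of all 4 genotypes were grown in serum with LIF on a layer of mouse fibroblasts stopped from dividing with mitomycin C, so each library can hold fibroblast RNA. Pcgf3 and Pcgf5 are alternative subunits of variant Polycomb repressive complex 1, which places ubiquitin on histone H2A. Each genotype has 2 labelled replicates, and the labels do not say whether these are separate cultures or clones, so the p-values measure only the spread between these samples, which may be technical.

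Cholesterol is built from acetyl-CoA: the mevalonate steps make isoprene units, these are joined to squalene, squalene is closed into lanosterol, and lanosterol is trimmed to cholesterol. Fatty acids start from the same acetyl-CoA, which ATP citrate lyase releases from citrate, and are then elongated and desaturated. Both branches are under the SREBP transcription factors, which are held in the endoplasmic reticulum by Scap and the Insig proteins when sterols are plentiful and are cut free to enter the nucleus when sterols are scarce. Srebf2 is known mainly for sterol genes and Srebf1 mainly for fatty acid genes.

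For WT replicate 1 the table in hand stops after 8093 genes (17.2% of the list) and holds 5 of the 32 genes, so WT is represented by replicate 2 alone except where stated. The other 7 libraries list all 47069 genes with 12652616 to 19923964 counts each, and all 32 genes passed the filter on low counts. Values are CPM, each gene's count scaled to a library of 1 fixed size, after TMM scaling of the library totals. Differences are log2 fold changes ± standard error from 1 edgeR quasi-likelihood fit over 15669 genes and 7 libraries, and "passed" means a p-value, adjusted after Benjamini and Hochberg over those genes, no higher than 0.05. With 1 WT library in that fit, its p-values hold no spread within WT. The spread of the edited pairs stands in for it in every comparison with WT. That spread is shared over all groups, so the DKO pair enters also the comparisons without DKO. This pair was the widest apart over all genes. Its median absolute log2 difference between replicates was 0.223, against 0.101 in Pcgf3KO and 0.0980 in Pcgf5KO. The transcript of the targeted genes was lower but not lost in its own knockout: Pcgf3 stood at 109.7 CPM in WT, 66.1 and 60.5 in Pcgf3KO, and 86.6 and 67.2 in DKO, beside 92.3 and 94.1 in Pcgf5KO, where it is not edited. DKO replicate 1 was thus nearer to the Pcgf5KO level of Pcgf3 than to that of Pcgf3KO. Pcgf5 stood at 20.7 CPM in WT, 12.3 and 9.06 in Pcgf5KO, and 13.5 and 13.9 in DKO, beside 17.3 and 17.4 in Pcgf3KO. Gene counts cannot show whether the remaining RNA is functional. DKO replicate 1 and the WT library stood furthest apart, with correlations of log2 levels to the other libraries of 0.973 to 0.985 and 0.973 to 0.984 across genes, against 0.987 to 0.993 among the other 5. The 10 ES cell markers were present in every library (2873 CPM in sum in WT, 3068 to 3567 in the edited libraries). Some differed between groups. Against WT, 20% of them passed in Pcgf3KO, 30% in Pcgf5KO and 20% in DKO, all as higher. Of all genes, 2.36%, 2.99% and 3.22% passed there in either direction. In DKO minus Pcgf5KO, 2 markers passed as higher and 2 as lower (40%, against 2.28% of all genes).

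Among the genes with a start site at hand, the regions just before it show 1 way in which the branches differ without any expression value. A few are printed to show it. RefSeq start sites (GRCm38.p6) were at hand for 25 of the 32 genes; Fdps, Fdft1, Sqle, Scd1, Scd2, Fads1 and Stard4 had no entry. The 250 bases before each start were searched on both strands for CCAAT, the letters bound by NF-Y, for TCACNCCAC, an SREBP-type sterol element, and for CACGTG, an E-box, and none of these motifs contains another. Capitals mark matches, and ATTGG is CCAAT read on the other strand. The stretches end before the first base of the gene in RefSeq, in the deposited tables and in GENCODE M21. The 3 sterol enzymes below carry CCAAT, and the 2 fatty acid enzymes show the 1 such gene with a match (Fasn) and 1 without (Acly).
Hmgcs1 (chr13:119690171-119690350, plus strand): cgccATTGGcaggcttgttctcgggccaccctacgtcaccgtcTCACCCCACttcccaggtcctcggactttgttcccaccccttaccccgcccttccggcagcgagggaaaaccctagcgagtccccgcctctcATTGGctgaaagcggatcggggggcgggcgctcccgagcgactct
Lss (chr10:76531408-76531587, plus strand): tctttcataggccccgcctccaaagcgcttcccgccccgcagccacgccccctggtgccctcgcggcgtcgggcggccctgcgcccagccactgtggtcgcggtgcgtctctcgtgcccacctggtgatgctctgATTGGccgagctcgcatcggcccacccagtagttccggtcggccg
Nsdhl (chrX:72918341-72918520, plus strand): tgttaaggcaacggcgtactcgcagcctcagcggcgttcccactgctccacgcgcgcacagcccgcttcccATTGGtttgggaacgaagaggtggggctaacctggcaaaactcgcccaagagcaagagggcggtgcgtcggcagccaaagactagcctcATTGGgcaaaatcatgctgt
Fasn (chr11:120824548-120824727, minus strand): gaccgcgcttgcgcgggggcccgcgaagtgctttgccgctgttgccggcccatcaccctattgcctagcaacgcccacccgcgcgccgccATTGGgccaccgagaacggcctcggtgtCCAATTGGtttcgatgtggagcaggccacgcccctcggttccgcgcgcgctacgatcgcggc
Acly (chr11:100528001-100528180, minus strand): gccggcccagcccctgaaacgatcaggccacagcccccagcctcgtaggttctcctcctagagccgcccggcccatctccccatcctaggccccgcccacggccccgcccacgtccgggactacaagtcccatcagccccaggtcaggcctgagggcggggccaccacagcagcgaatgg
In Fasn the run CCAATTGG holds 2 overlapping matches, 1 on each strand.

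CCAAT was present before the start of 14 of 15 sterol enzymes (93.3%), Acat2 being the exception, and of 1 of 5 fatty acid enzymes (20%). It was present in 4 of 5 regulators (80%), the exception being Scap, against 37.5% of 27025 genes searched in the same way. Genes with several RefSeq starts were counted once if any of their windows matched, which favours such genes; Dhcr7 matched only in the last of its 3 windows. TCACNCCAC was found in Hmgcs1 alone (4% of the 25 genes, 1.22% of all genes). CACGTG was found in Hsd17b7, Sc5d, Dhcr7, Scap and Insig1 (20% of the 25 genes, 6.86% of all genes). A match is a description of the letters, not evidence of binding.

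The fatty acid branch held the most abundant transcripts. Per kilobase of exon, the scale on which genes can be compared, Acly (ATP citrate lyase) averaged 189.7 CPM per kilobase over the group means, Scd2 (a stearoyl-CoA desaturase) 178, and Fasn (fatty acid synthase) 110.3. The highest sterol enzyme was Hmgcs1, HMG-CoA synthase at the entry to the mevalonate steps, at 92.1, followed by Acat2, which condenses acetyl-CoA, at 59.0. The transcription factor gene Srebf2 stood at 55.9 and Srebf1 at 22.8. Idi1, isopentenyl diphosphate isomerase, was at 49.0, Sqle (squalene epoxidase) at 34.3, Lss (lanosterol synthase) at 9.72, and Tm7sf2, a sterol reductase, at 4.82. No gene's highest library exceeded its lowest by more than 1.68-fold on this scale, the level reached by Fdps, and for Tm7sf2 the ratio was 1.08. Some neighbours in this order, such as Nsdhl at 19.1 and Msmo1 at 19.2, had overlapping libraries. Others did not: the lowest Scd2 library (156) was above the highest Fasn library (126), and the lowest of Hmgcs1 (80.3) above the highest of Acat2 (61.2).

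**Figure D1:**
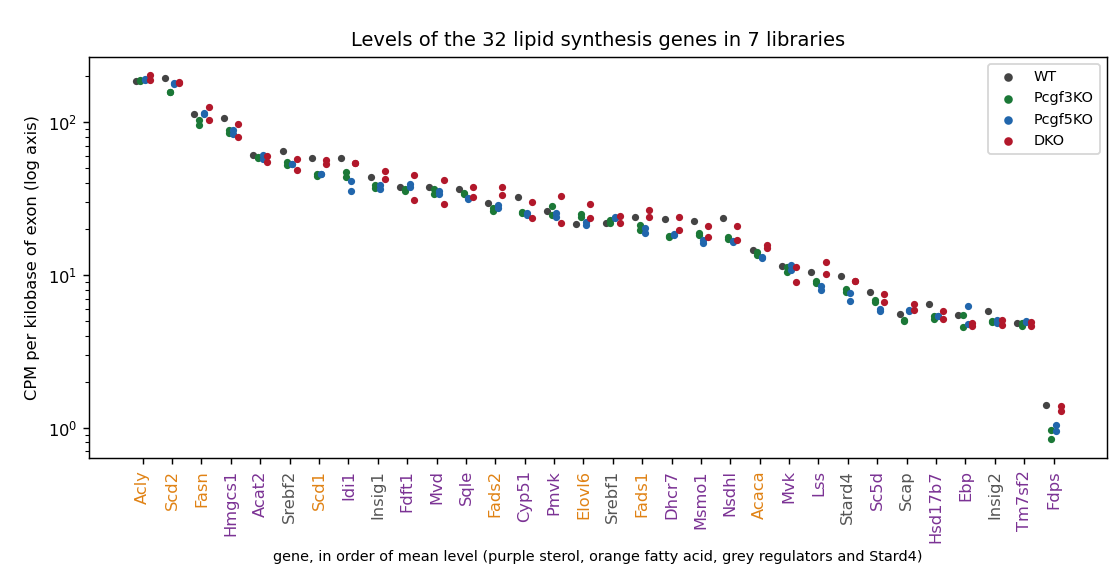
Level of each of the 32 genes in CPM per kilobase of exon (log axis) in 7 libraries, in order of mean level, 1 point per library coloured by genotype. Acly at 189.7 and Scd2 at 178 lead, and Fdps at 1.16 stands far below the rest.

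Fdps, farnesyl diphosphate synthase, was listed at only 54 to 118 counts per library, and this level is uncertain. Of the 50-base windows of its longest coding transcript, 86.4% also occur in transcripts of other genes, most of them pseudogenes, and how the counting treated such reads is not given in the sources used here. The shared part was 52.6% for Acaca (acetyl-CoA carboxylase), 45.9% for Acat2, 30.7% for Fdft1 (squalene synthase, with Ctsb on the opposite strand), 30.5% for Idi1, 13.6% for Hmgcs1 and 13.1% for Scap. For Scd1 and Scd2, close relatives that both lie on chromosome 19, it was 4.66% and 4.01%. The Idi1 pseudogene Gm13502 drew 46 to 102 counts per library, against 1545 to 3815 for Idi1 itself. The labels name a NEBNext Ultra kit, and whether counting used strand is not given. Overlapping antisense genes may therefore have affected the counts of Hmgcs1, Idi1, Fdft1, Lss, Cyp51, Elovl6 and Scap.

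In the single knockouts most sterol genes lay below WT, but almost none passed the test. The WT library was above all 4 single-knockout libraries for 22 of the 32 genes (68.8%), an order shown by 30.1% of all genes tested; this order was chosen for description after the values were seen. The 22 comprise 13 of 18 sterol enzymes, 5 of 8 fatty acid enzymes, and Srebf2, Insig1, Insig2 and Stard4. Acly was the 1 gene for which WT lay below all 4, an order shown by 29.9% of all genes. All these orders rest on a single WT library.

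**Figure D2:**
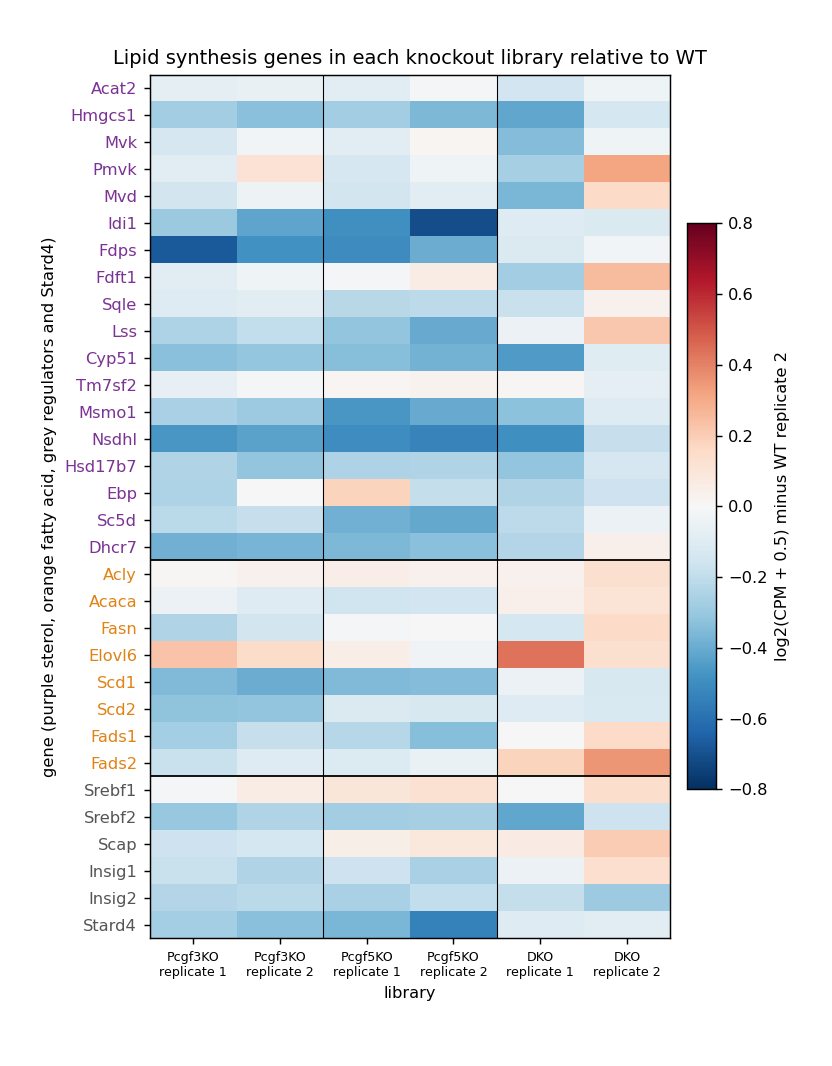
Colours give log2(CPM + 0.5) in each of the 6 edited libraries minus WT replicate 2, for the 32 genes in pathway order (purple sterol enzymes, orange fatty acid enzymes, grey regulators and Stard4). Blue predominates in the 4 single-knockout columns, Pcgf5KO showing Idi1 as the darkest field among sterol genes, and the DKO replicate 2 column is the palest for the sterol enzymes, with a median of -0.04.

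For Pcgf3KO minus WT, edgeR passed 0 of the 32 genes, where it passed 2.36% of all genes. At an unadjusted edgeR p under 0.05 there were 11 (34.4%, against 15.9% of all genes), and DESeq2 passed 1, Scd1. The median log2 fold change was -0.21 over the sterol enzymes, 17 of 18 of them below 0, and -0.17 over the fatty acid enzymes, 6 of 8 below 0, beside 0.00 over all genes. The smallest p-values belonged to the desaturases. Scd2 measured 1066 CPM in WT, 853 and 856 in the Pcgf3KO pair, 985 and 974 in the Pcgf5KO pair, and 994 and 979.8 in the DKO pair. The Pcgf3KO libraries were thus the lowest of all, and Pcgf5KO and DKO overlapped. Its difference in Pcgf3KO was -0.32 ± 0.07 (adjusted p = 0.0591). Nsdhl, which helps to remove methyl groups from the sterol ring, measured 67.6 CPM in WT, 48.7 and 50.2 in the Pcgf3KO pair, 47.8 and 46.6 in the Pcgf5KO pair, and 47.9 and 59.5 in the DKO pair. WT was above every edited library, and the DKO libraries spanned the Pcgf3KO values. Its differences were -0.45 ± 0.13 in Pcgf3KO (adjusted p = 0.125) and -0.52 ± 0.13 in Pcgf5KO (adjusted p = 0.0804), neither passing.

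For Pcgf5KO minus WT, 1 of the 32 genes fell and 0 rose, beside 2.99% of all genes passing in either direction and 1.68% as lower. That gene was Idi1, which makes the reactive isoprene unit used by all later sterol steps. It measured 204 CPM in WT, 166 and 152 in the Pcgf3KO pair, 145 and 125 in the Pcgf5KO pair, and 189.9 and 189 in the DKO pair. The single knockouts did not overlap WT or DKO, and the Pcgf5KO libraries lay below those of Pcgf3KO. Idi1 fell by 0.60 ± 0.11 on the log2 scale in Pcgf5KO (adjusted p = 0.0249), and its difference of -0.36 ± 0.11 in Pcgf3KO did not pass (adjusted p = 0.132). Leaving out any 1 of the 4 single-knockout libraries ended this call, with adjusted p from 0.0770 to 0.236.

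Over the sterol enzymes the median for Pcgf5KO minus WT was -0.28, with 15 of 18 below 0, and over the fatty acid enzymes it was -0.10, with 6 of 8 below 0. The median over all genes was 0.005. Among sterol enzymes with large differences that did not pass was Msmo1, a methylsterol oxidase. It measured 137 CPM in WT, 115 and 112 in the Pcgf3KO pair, 99.3 and 104 in the Pcgf5KO pair, and 109 and 128 in the DKO pair. Of these 7 libraries WT was the highest and the Pcgf5KO pair the lowest. The difference in Pcgf5KO was -0.44 ± 0.11 (adjusted p = 0.0724). It was -0.14 with WT replicate 1 alone as WT in a fit of the genes that its short table shares with the others.

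Among the fatty acid enzymes, the difference of Fasn in Pcgf5KO was -0.01 ± 0.11 and that of Acly 0.04 ± 0.08. Fasn measured 1245 CPM in WT, 1054 and 1123 in the Pcgf3KO pair, 1232 and 1246 in the Pcgf5KO pair, and 1129 and 1383 in the DKO pair. The Pcgf5KO libraries enclosed the level of WT, and the DKO pair spanned nearly the whole range. For Pcgf5KO minus Pcgf3KO, 0 of the 32 genes passed in edgeR and 0 in DESeq2, beside 0.14% of all genes passing in edgeR. Scd2, Idi1 and Scap had an unadjusted edgeR p under 0.05. These 3 are 9.38% of the 32, near the 8.5% of all genes at that cut. The sterol median for that comparison was -0.02 and the fatty acid median 0.02.

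For DKO minus WT, 0 of the 32 genes passed in edgeR and 0 in DESeq2, beside 3.22% of all genes passing in edgeR. An unadjusted edgeR p under 0.05 was found for 5 of the 32 (15.6%), a lower share than the 19.4% of all genes. The branches had medians of opposite sign, -0.10 for the sterol enzymes (15 of 18 below 0) and 0.08 for the fatty acid enzymes (2 of 8 below 0). Fads2, a fatty acid desaturase of polyunsaturated lipids, measured 97.5 CPM in WT, 86.3 and 90.7 in the Pcgf3KO pair, 90.4 and 93.8 in the Pcgf5KO pair, and 110.5 and 125 in the DKO pair. The DKO libraries were the highest and WT lay between them and the single knockouts. The difference to WT was 0.27 ± 0.11 (adjusted p = 0.212). Elovl6, which elongates palmitate, differed from WT by 0.29 ± 0.13 (adjusted p = 0.249), with DKO libraries at 187 and 151 CPM against 138 in WT.

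When the double knockout was set against each single knockout, the fitted differences of the fatty acid enzymes were all positive, though none passed. Some were smaller than their standard error. In DKO minus Pcgf5KO these were Scd2 (0.01 ± 0.06), Fasn (0.02 ± 0.09) and Acly (0.04 ± 0.06). For Fasn, DKO replicate 1 (1129 CPM) lay below both Pcgf5KO libraries (1232 and 1246). All 8 had a positive difference against both single knockouts, with medians of 0.21 (DKO minus Pcgf3KO) and 0.25 (DKO minus Pcgf5KO). The sterol medians were 0.06 and 0.12, with 15 and 13 of 18 enzymes above 0. The medians over all genes were 0.01 and 0.02. The 2 comparisons share the DKO libraries and are not independent of each other.

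For DKO minus Pcgf3KO, edgeR passed 0 of the 32 genes, against 1.74% of all genes, and DESeq2 passed 1, Fads2. The unadjusted edgeR p was under 0.05 for 10 of the 32 (31.2%, against 18.2% of all genes). The edgeR difference of Fads2 was 0.41 ± 0.09 (adjusted p = 0.0519). For DKO minus Pcgf5KO, 1 of the 32 passed and was higher, against 2.28% of all genes in either direction and 0.996% as higher. This was Idi1 again, which rose by 0.49 ± 0.09 (adjusted p = 0.0359), a call lost without any 1 of the 4 single-knockout libraries (adjusted p from 0.104 to 0.392). Lss measured 113 CPM in WT, 95.2 and 98.9 in the Pcgf3KO pair, 91.1 and 85.6 in the Pcgf5KO pair, and 109.8 and 132 in the DKO pair. Both DKO libraries were above all 4 single-knockout libraries and enclosed WT. Its difference of 0.45 ± 0.10 against Pcgf5KO narrowly missed (adjusted p = 0.0512). DESeq2 passed 4 of the 32 in this comparison, Idi1, Lss, Fads1 and Fads2.

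**Figure D3:**
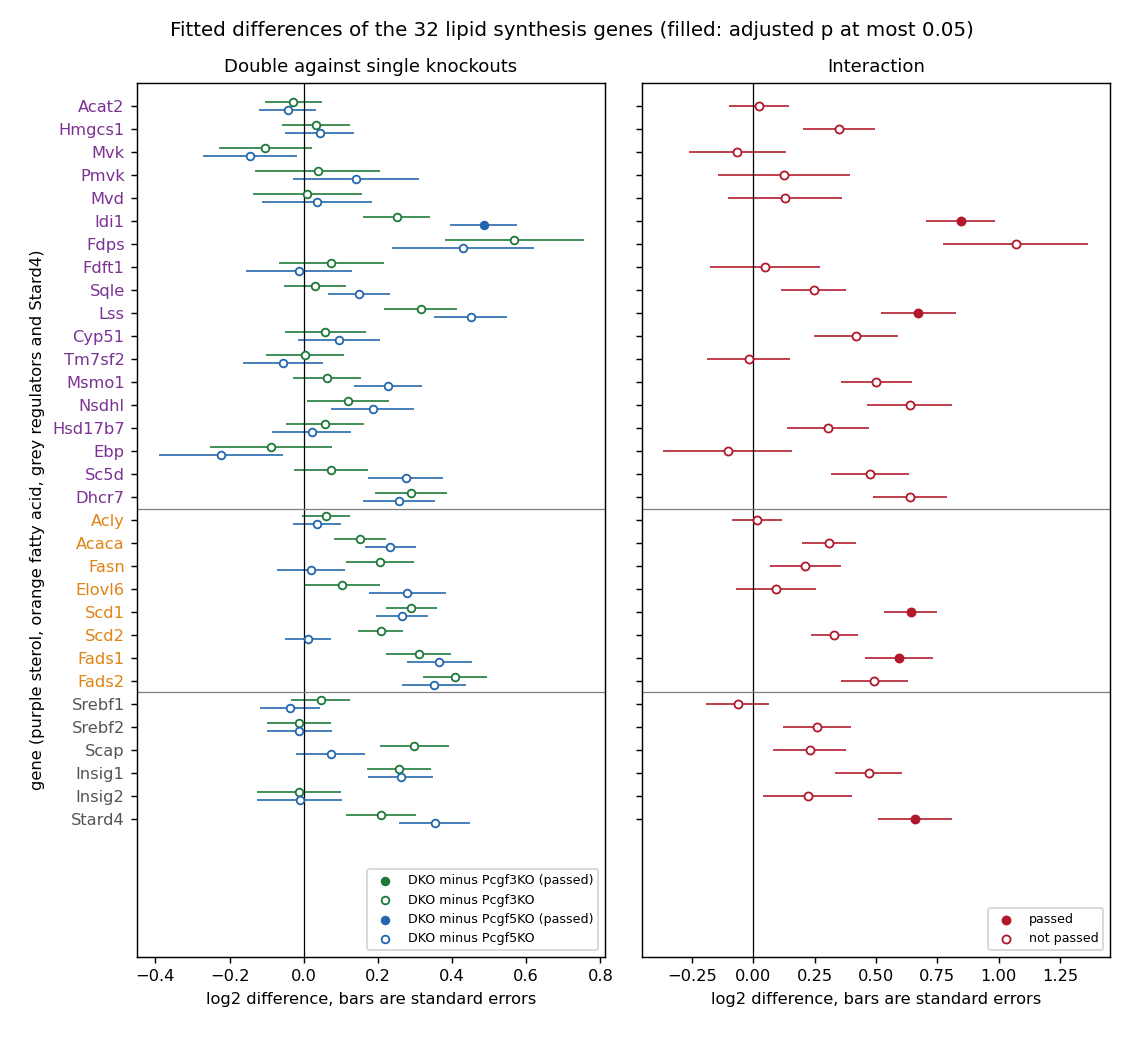
Left, fitted log2 differences of DKO against Pcgf3KO (green) and Pcgf5KO (blue) for the 32 genes; right, the interaction term; bars are standard errors and filled points passed. On the left only Idi1 against Pcgf5KO (0.49) is filled, and on the right Idi1, Lss, Scd1, Fads1 and Stard4 are filled, at 0.59 to 0.85.

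The interaction term asks whether the double knockout lay where the sum of both single-knockout differences would put it on the log2 scale. A value above 0 means that DKO was higher than that sum. In this term 5 of the 32 genes passed, all higher than additive, and 0 passed as lower, beside 3.79% of all genes in either direction and 1.77% as higher. They are 2 sterol enzymes (Idi1 and Lss), 2 fatty acid desaturases (Scd1 and Fads1) and Stard4 (ENSMUSG00000024378), a carrier that moves cholesterol between membranes. In the mm10 coordinates of the deposited tables, Idi1 (ENSMUSG00000058258) lies on the plus strand of chromosome 13 from 8885501 to 8892451. Lss (ENSMUSG00000033105) lies on the plus strand of chromosome 10 from 76531588 to 76557138. Scd1 (ENSMUSG00000037071) and Fads1 (ENSMUSG00000010663) lie on chromosome 19, Scd1 on the minus strand from 44394451 to 44407709 and Fads1 on the plus strand from 10182888 to 10196870. At an unadjusted p under 0.05 there were 16 of the 32 (50%), against 23.2% of all genes. The branch medians were alike, 0.33 for the sterol enzymes and 0.32 for the fatty acid enzymes, beside 0.01 over all genes; their difference was not tested.

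Idi1 had the largest interaction among the genes that passed, 0.85 ± 0.14 (adjusted p = 0.0140), with the levels given above. Lss followed at 0.67 ± 0.15 (adjusted p = 0.0462). Scd1, the desaturase that makes oleate, measured 285 CPM in WT, 222 and 216 in the Pcgf3KO pair, 223 and 224 in the Pcgf5KO pair, and 276 and 261 in the DKO pair. The 4 single-knockout libraries lay close together, below both DKO libraries, which in turn lay below WT. The interaction of Scd1 was 0.64 ± 0.11 (adjusted p = 0.0156). Fads1, which makes arachidonate by desaturation, measured 115 CPM in WT, 95.2 and 101 in the Pcgf3KO pair, 98.0 and 90.9 in the Pcgf5KO pair, and 115 and 128 in the DKO pair. The single knockouts overlapped each other and lay below WT and DKO. The interaction of Fads1 was 0.59 ± 0.14 (adjusted p = 0.0474). Stard4 measured 54.6 CPM in WT, 45.1 and 43.3 in the Pcgf3KO pair, 42.3 and 37.4 in the Pcgf5KO pair, and 50.9 and 51.2 in the DKO pair. Its libraries fell into the same order, with the DKO pair close together just under WT, and its interaction was 0.66 ± 0.15 (adjusted p = 0.0450).

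**Figure D4:**
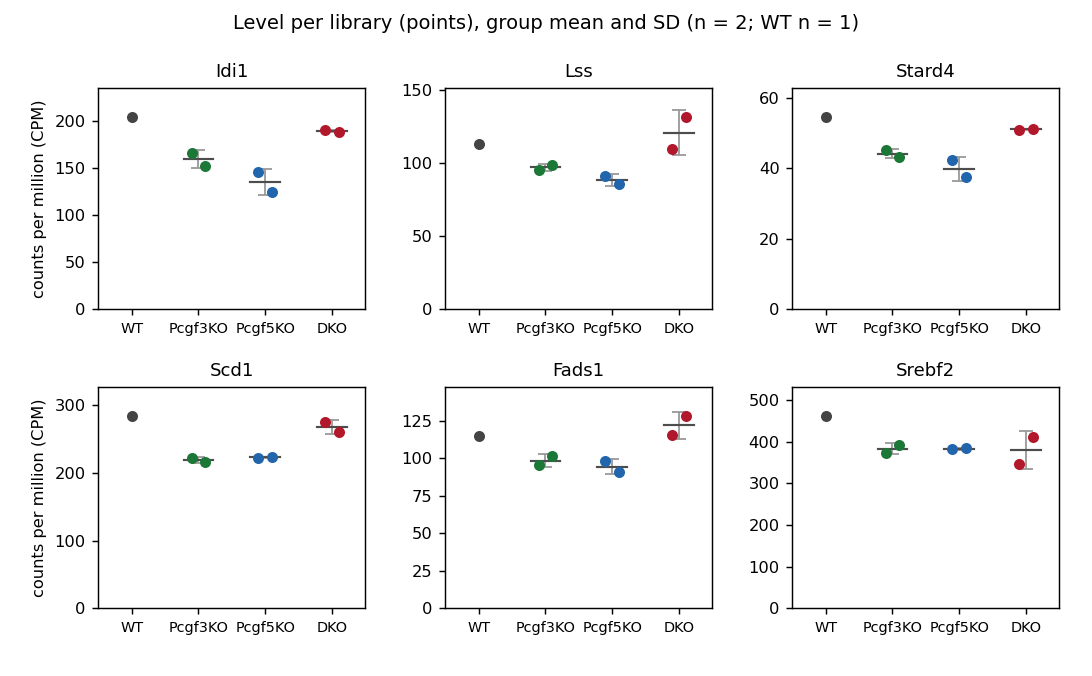
CPM in each library (points) for the 5 genes with a passed interaction and for Srebf2, with the group mean and SD (n = 2; WT is a single library) on axes that start at 0. In the 5 genes both DKO points lie above all single-knockout points (Scd1 at 276 and 261 against 216 to 224), while the Srebf2 DKO points at 347 and 412 enclose them.

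The same order held beyond those that passed. Both DKO libraries and WT lay above all 4 single-knockout libraries for 10 of the 32 genes, Idi1, Fdps, Lss, Dhcr7, Acaca, Scd1, Fads1, Fads2, Insig1 and Stard4, against 7.6% of all genes. Counting DKO alone, the same 10 genes (31.2%) had both DKO libraries above all 4 single-knockout libraries, against 15% of all genes, and 0 had both below, against 15.9%. By branch these were 4 of 18 sterol enzymes (22.2%) and 4 of 8 fatty acid enzymes (50%). Dhcr7, the last reductase before cholesterol, measured 135 CPM in WT, 103 and 104 in the Pcgf3KO pair, 105 and 107 in the Pcgf5KO pair, and 115 and 139 in the DKO pair, and its interaction of 0.64 ± 0.15 narrowly missed (adjusted p = 0.0529). The DKO pair was above the single knockouts and enclosed WT. These orders too were chosen for description after the values were seen.

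All interactions use the single WT library with a positive sign, so a WT library that happened to be high raises every one of them. Of the 5 genes that the short WT replicate 1 table lists, all 5 were lower there than in replicate 2, on a CPM scale relative to the genes shared by all 8 tables. The share of all shared genes lower in WT replicate 1 was not counted, so whether this order is particular to the 5 is not known. Lss was at 519 in WT replicate 1 and 639 in replicate 2, Msmo1 at 625 and 775, Stard4 at 286 and 308, Hsd17b7 at 169 and 184, and Mvk at 167 and 173. For Lss, WT replicate 1 lay inside the range of the single knockouts (479 to 559), and for Stard4 it remained above their range (209.5 to 254). For Msmo1, WT replicate 1 lay below both Pcgf3KO libraries (647 and 634) and DKO replicate 2 (724). With both WT libraries in a fit of 2702 shared genes, the interaction was 0.62 ± 0.13 for Stard4 (adjusted p = 0.0252) and 0.54 ± 0.16 for Lss (adjusted p = 0.0657), where 6.92% of genes passed. In that fit Stard4 also fell in Pcgf5KO against WT, by 0.41 ± 0.10 (adjusted p = 0.0258, 8.62% of genes passing), and the Lss difference in Pcgf3KO shrank to -0.08 ± 0.11 from -0.22 ± 0.12. Both Stard4 calls of that fit were lost without any 1 of the 4 single-knockout libraries, with adjusted p from 0.0540 to 0.260 against WT and from 0.0746 to 0.150 for the interaction. The call against WT was also lost without either WT library (adjusted p = 0.0764 and 0.141). With WT replicate 1 alone as WT, the interactions were 0.56 for Stard4 (adjusted p = 0.0913), 0.38 for Lss (adjusted p = 0.224) and 0.19 for Msmo1, which had 0.50 with replicate 2. In that setting the Pcgf3KO differences from WT turned positive for Lss, at 0.08, and for Msmo1, at 0.04. Idi1, Scd1 and Fads1 are not in the short table.

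The DKO libraries differed from each other more than the other pairs did, in the sterol branch and over all genes. The median absolute log2 difference between replicates over all genes was 0.223 in DKO, 0.101 in Pcgf3KO and 0.0980 in Pcgf5KO, and over the sterol enzymes it was 0.244, 0.0565 and 0.0632. The direction was mostly shared in the sterol branch. DKO replicate 2 was above replicate 1 for 16 of 18 sterol enzymes and 5 of 8 fatty acid enzymes, and for 26 of all 32 genes, against 51.9% of all genes. The median signed log2 difference of replicate 2 from replicate 1 was 0.24 over the sterol enzymes and 0.08 over the fatty acid enzymes in DKO, and 0.02 over all genes. For the sterol enzymes it was 0.04 in Pcgf3KO and 0.01 in Pcgf5KO. Pmvk and Mvd, mevalonate-step enzymes, and Fdft1 were the widest: Fdft1 measured 131 and 189 CPM in the DKO libraries, enclosing 159 in WT and all single knockouts (149 to 165). Relative to WT, the sterol median was -0.25 in DKO replicate 1 and -0.04 in replicate 2, while the single-knockout libraries lay from -0.29 to -0.19. The corresponding fatty acid medians were 0.02 and 0.13 in DKO and -0.21 to -0.09 in the single knockouts.

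**Figure D5:**
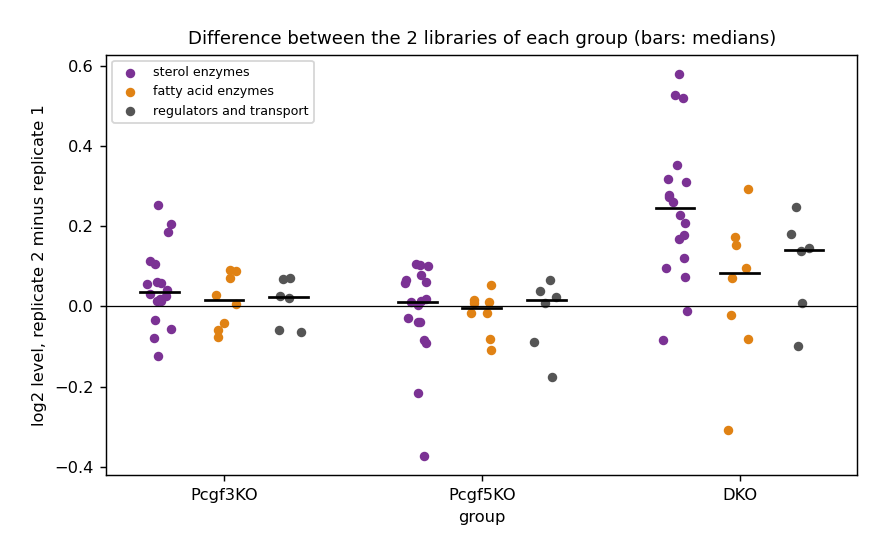
Log2 level of replicate 2 minus replicate 1 within each edited group, 1 point per gene, coloured by branch, with black bars for the medians. The sterol median is 0.24 in DKO and 0.04 and 0.01 in Pcgf3KO and Pcgf5KO.

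Because of that spread, the DKO library used decides the sterol median against the single knockouts. Without DKO replicate 2 it was -0.07 against Pcgf3KO and -0.04 against Pcgf5KO, and without DKO replicate 1 it was 0.19 and 0.27. The fatty acid medians stayed positive in both cases. The number of the 32 genes with a passed interaction was 23 without DKO replicate 1 (24.1% of all genes then passed) and 18 without DKO replicate 2 (36.7%), and 0 without any 1 of the 4 single-knockout libraries (at most 0.314% of all genes). The 5 genes that passed kept an interaction of 0.51 to 0.96 under each of these omissions.

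Of the 6 genes of regulation and transport, 1 passed in the fit of 7 libraries, Stard4 in the interaction. Their median difference from WT was -0.22 in Pcgf3KO (5 of 6 below 0), -0.22 in Pcgf5KO (4 of 6 below 0) and -0.024 in DKO (3 of 6 below 0), and their median interaction was 0.245 (5 of 6 above 0). Srebf2 measured 462 CPM in WT, 374 and 392 in the Pcgf3KO pair, 382 and 384 in the Pcgf5KO pair, and 347 and 412 in the DKO pair. WT was above every edited library and the DKO libraries enclosed the single knockouts. Its differences from WT were -0.27 ± 0.11 in both Pcgf3KO (adjusted p = 0.245) and Pcgf5KO (adjusted p = 0.205) and -0.28 ± 0.11 in DKO (adjusted p = 0.190). Srebf1 measured 124 CPM in WT, 123 and 129 in the Pcgf3KO pair, 132 and 135 in the Pcgf5KO pair, and 124 and 137 in the DKO pair. The Pcgf5KO pair was above WT and the Pcgf3KO pair, and the DKO libraries reached from the WT level to above Pcgf5KO. Scap, the escort of the SREBP proteins, measured 41.6 CPM in WT, 36.9 and 37.6 in the Pcgf3KO pair, 43.0 and 44.2 in the Pcgf5KO pair, and 43.6 and 48.0 in the DKO pair. Pcgf3KO was the lowest pair, and the difference of DKO from it was 0.30 ± 0.09 (adjusted p = 0.151).

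The Insig genes encode the proteins that retain Scap, and Insig1 is itself a known SREBP target. Insig1 measured 135 CPM in WT, 119.9 and 115 in the Pcgf3KO pair, 121 and 113 in the Pcgf5KO pair, and 131 and 149 in the DKO pair. As for Lss, both DKO libraries were above the single knockouts and enclosed WT, and the interaction of 0.47 ± 0.14 did not pass (adjusted p = 0.0900). Insig2 measured 20.2 CPM in WT, 17.0 and 17.3 in the Pcgf3KO pair, 16.7 and 17.5 in the Pcgf5KO pair, and 17.6 and 16.4 in the DKO pair. Here the DKO libraries overlapped the single knockouts, and the interaction was 0.22 ± 0.18.

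The remaining genes had no passed difference in any of the 7 comparisons. Of the sterol enzymes, Hmgcs1 measured 492 CPM in WT and 369 to 446 in the 6 edited libraries, and Cyp51 (lanosterol demethylase) 142 against 104 to 132. Sqle measured 203 CPM in WT and 174 to 208 in the edited libraries, Sc5d 37.8 against 28.3 to 36.6, and Hsd17b7 32.7 against 26.1 to 29.7. Acat2, Mvk, Pmvk, Mvd, Fdft1, Tm7sf2 and Ebp had interactions between -0.10 and 0.13, each smaller than its standard error. Of the fatty acid enzymes, Acly had an interaction of 0.02 ± 0.10, with 976 CPM in WT and 981 to 1066 in the edited libraries. Acaca, which makes malonyl-CoA, measured 247 CPM in WT, 221 to 240 in the single knockouts, and 254 and 267 in DKO, with an interaction of 0.31 ± 0.11 (adjusted p = 0.140).

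Of the 10 ES cell markers, 3 passed in the interaction (30%, against 3.79% of all genes), 1 positive and 2 negative. Markers of other cell types also differed between the groups. The summed level of 18 fibroblast markers was 2091 CPM in WT, 1676 to 1724 in Pcgf3KO, 1906 to 1977 in Pcgf5KO and 1854 to 1929 in DKO. Most of it was Fn1 and Sparc, at 1091 and 807 CPM in WT. Of the 16 markers tested, 5 passed in Pcgf3KO minus WT (31.2%, against 2.36% of all genes) and 4 in DKO minus WT (25%, against 3.22%), all lower. In the interaction 7 passed (43.8%, against 3.79%), 6 positive and 1 negative. Acta2, Tagln and Col1a2 were lowest in DKO, Acta2 at 0.685 and 1.04 CPM there against 11.1 in WT and 4.92 to 8.73 in the single knockouts. Tagln measured 17.02 and 17.2 CPM in DKO against 51.2 in WT. Other markers went the other way. Thy1 measured 22.1 and 33.3 CPM in DKO against 19.8 in WT, and Col6a1 7.11 and 7.66 against 6.66. In DKO minus Pcgf3KO, 5 markers passed as higher and 2 as lower (43.8%, against 1.74% of all genes). For Pcgf5KO minus WT, 1 passed, as lower (6.25%, against 2.99%). No fibroblast marker was at 0 in every library. The 10 endoderm markers summed to 442 CPM in WT, 245 to 251 in Pcgf3KO, 240 to 253 in Pcgf5KO and 277 to 313 in DKO, mostly Lama1 and Col4a1, while Ttr was at 0 in 5 of 7 libraries. Of the 7 markers tested, edgeR passed 2 in Pcgf3KO minus WT (28.6%, against 2.36% of all genes), as lower. It passed 3 in Pcgf5KO minus WT (42.9%, against 2.99%) and 2 in DKO minus WT (28.6%, against 3.22%), also lower. DESeq2 passed 2, 2 and 1 there. In the interaction 2 passed as higher (28.6%, against 3.79%), Col4a1 at 2.16 ± 0.17 (adjusted p = 0.00108) and Dab2 at 1.56 ± 0.29 (adjusted p = 0.0219). The fibroblast and the endoderm sum both had WT highest, as Idi1 and Scd1 did. The endoderm sum also had DKO above the single knockouts. Within the fibroblast sum, Fn1 and Sparc did not have WT highest. Fn1 reached 1138 CPM in DKO replicate 1, and Sparc measured 826 and 871 CPM in Pcgf3KO. Other fibroblast markers did, such as Col1a1 (16.2 CPM in WT, 5.19 to 7.93 in the edited libraries). The 6 adipocyte markers summed to 5.87 to 10.9 CPM, nearly all of it Lpl, and Adipoq was at 0. Fewer cells of a type and less RNA per cell cannot be told apart in these bulk samples, and the part of these cell types in the results was not tested.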

How the data were processed

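Polyadenylated RNA (TRIzol extraction, poly-T selection, NEBNext Ultra kit per the labels' protocols) from 8 libraries was sequenced, and the authors deposited 1 table of whole-number read counts per gene for each library. The submitters' processing notes name TopHat2 2.0.12, Cufflinks 2.2.1, HTSeq 0.6.0 and mm10, without saying which did what; which annotation was used, whether counting used strand, and how reads with several matches were treated is not given in the sources used here. Symbols came from GENCODE M21 (46488 of 47069 identifiers matched), and no entry named anything but a gene. Groups follow the sample labels.

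Counts were fitted with edgeR 4.0.16 (R 4.3.3; TMM, filterByExpr by group, glmQLFit and glmQLFTest) in 1 model of 7 libraries with 3 residual degrees of freedom; WT replicate 1, whose table breaks off (8093 genes, 3459002 counts), entered only an 8-library fit of 2702 genes with 4 residual degrees of freedom. The p-values were adjusted by Benjamini-Hochberg over all genes tested and called at 0.05. All 7 comparisons come from the same fit and share samples, the WT library above all, so the 3 comparisons with WT and the interaction are not independent. Alternatives were DESeq2 1.42.0, RLE size factors, no filter on low counts, a replicate block, leaving out each library, and the 8-library fit; leaving out each library of the 8-library fit and the counts of library orders were added after the values were seen. Log2 levels outside the fit used a pseudocount of 0.5 CPM. Exon lengths came from the annotation, and promoter sequences from RefSeq (GRCm38.p6). The deviations of same-numbered replicates correlated at -0.01, 0.14 and 0.01 between edited groups and at 0.0167, -0.0619 and 0.197 between WT and these (Pcgf3KO, Pcgf5KO, DKO), not above 0.1 in every pair, so the numbers were not taken to pair the samples. Members and lists were chosen with earlier results of these data known, so no p is given for a list; lists are described by counts and medians beside those of all genes. Values per library are given for genes that passed anywhere, for the 3 of smallest p in each comparison and for the SREBP regulators; other genes with values were named to fill their branch. The libraries hold 12652616 to 19923964 counts; depth limits the precision for genes of few counts such as Fdps, and WT has a single full library.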

Additional observations from a re-analysis of the deposited data

Results flagged for a closer look

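In 5 genes edgeR's interaction term passed after Benjamini-Hochberg adjustment. It asks whether the effect of losing Pcgf3 or Pcgf5 differs with the state of the other gene. The log2 interaction was 0.85 for Idi1 (adjusted p = 0.0140), 0.67 for Lss (adjusted p = 0.0462), 0.66 for Stard4 (adjusted p = 0.0450), 0.64 for Scd1 (adjusted p = 0.0156) and 0.59 for Fads1 (adjusted p = 0.0474). In each gene the 4 single-knockout libraries were below WT and both DKO libraries were above all 4. Each rests on 1 WT library, and WT replicate 1 lay below replicate 2 for both of these genes that its table lists, Lss (519 against 639 CPM of the shared genes) and Stard4 (286 against 308). The share of all shared genes with that order was not counted. Leaving out any 1 of the 4 single-knockout libraries ended all 5 calls. With both WT libraries in the edgeR fit of shared genes, Lss did not pass (0.54 ± 0.16, adjusted p = 0.0657). With WT replicate 1 alone as WT, its interaction was 0.38.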

How the results depend on the processing

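The number of the 32 genes called moved with the settings, as did the share of all genes called, given in parentheses. For Pcgf3KO minus WT (0 as reported) it was 1 with DESeq2 (2.51%), 6 without the filter on low counts (4.34%) and 1 with the replicate block (2.65%). For Pcgf5KO minus WT (1) it was 2 (3.18%), 7 (4.8%) and 3 (4.39%) in that order, for DKO minus Pcgf3KO (0) 1 (2.37%), 4 (5.32%) and 1 (3.18%), and for DKO minus Pcgf5KO (1) 4 (5.13%), 7 (9.07%) and 6 (9.78%). RLE scaling gave 1 for DKO minus Pcgf3KO (1.79%) and 2 for DKO minus Pcgf5KO (2.37%), and the interaction (5) had 11 without the filter (7.47%) and 6 with the block (8.33%). The replicate numbers were not taken to pair the samples, so the block is not a paired analysis; with it the fatty acid median for Pcgf3KO minus WT was -0.11. No call the report names for the 32 genes was lost with DESeq2, RLE scaling, no filter or the block, while DESeq2 called 4 fibroblast markers in Pcgf3KO minus WT where edgeR called 5. Leaving out 1 library at a time, the counts ranged from 0 to 17, 0 to 16 and 0 to 14 against WT (Pcgf3KO, Pcgf5KO, DKO), 0 to 18 and 0 to 19 for DKO minus Pcgf3KO and minus Pcgf5KO, 0 to 6 for Pcgf5KO minus Pcgf3KO and 0 to 23 for the interaction. The high values came without a DKO library, where 12.2% to 42.3% of all genes passed, and the zeros without a single-knockout library, where fewer genes passed in each comparison than with all 7 libraries (at most 0.314% for the interaction). In the same comparisons the sterol medians ranged from -0.25 to -0.19, -0.29 to -0.26, -0.26 to -0.0417, -0.0672 to 0.19, -0.0391 to 0.27, -0.05 to -0.0004 and 0.21 to 0.43. The fatty acid medians ranged from -0.21 to -0.12, -0.11 to -0.09, 0.0203 to 0.13, 0.19 to 0.23, 0.19 to 0.26, 0.01 to 0.03 and 0.31 to 0.35. Differences that had not passed turned negative and passed without DKO replicate 2: Pmvk at -0.27 in DKO minus WT and -0.28 in DKO minus Pcgf3KO, Mvd at -0.28 and -0.25 against Pcgf3KO and Pcgf5KO, Fdft1 at -0.27 against WT, -0.21 against Pcgf3KO and -0.24 in the interaction, and Fasn at -0.14 against WT and -0.13 against Pcgf5KO. Without DKO replicate 1, Fdft1 turned to 0.23 in DKO minus Pcgf5KO, from -0.30 without replicate 2, and the same differences stood at the other side: Pmvk at 0.30 against Pcgf3KO, Mvd at 0.24 against Pcgf3KO, Fdft1 at 0.25 against WT and 0.29 in the interaction, and Fasn at 0.15 against WT and 0.16 against Pcgf5KO. The cause was not tested. WT replicate 2 could not be left out of comparisons with WT, as no other WT library lists all genes.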

Other observations

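The rest of lipid metabolism, described by lists of the same pathways, had 0 to 2 genes that passed per list and comparison. The highest share was in the list of acetyl-CoA and NADPH supply, with 2 of 12 tested genes passing in DKO minus Pcgf5KO (16.7%, against 2.28% of all genes) and 2 of 12 in the interaction (16.7%, against 3.79%). In each other list with a gene that passed, 1 gene did, in up to 3 comparisons (4.55% to 7.69% of the list). Of the 9 genes that cut or degrade the SREBP machinery (such as Mbtps1 and Mbtps2, the proteases that release SREBP), edgeR passed 0 in each of the 7 comparisons (0 to 3 at an unadjusted p under 0.05, and 1 by DESeq2, in DKO minus Pcgf5KO). Of 20 tested fatty acid oxidation genes edgeR also passed 0 in each (1 to 5 at an unadjusted p under 0.05, and 1 by DESeq2, in DKO minus Pcgf3KO). The unadjusted counts are 0% to 33.3% of the SREBP list and 5% to 25% of the oxidation list. Of all genes, 8.5% to 25.8% met that cut in the same comparisons. Abcg1, an exporter of cholesterol, measured 15.9 CPM in WT, 25.0 and 25.9 in the Pcgf3KO pair, 32.6 and 34.9 in the Pcgf5KO pair, and 20.5 and 25.4 in the DKO pair. It thus ran opposite to Idi1, with WT lowest and Pcgf5KO highest. Abcg1 rose by 1.08 ± 0.16 in Pcgf5KO (adjusted p = 0.0106), and its interaction was -1.23 ± 0.20 (adjusted p = 0.0136). It was 1 of 17 tested genes of sterol export, storage and turnover.

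Acsl3, which activates fatty acids with coenzyme A, measured 88.0 CPM in WT, 67.4 and 64.9 in the Pcgf3KO pair, 62.1 and 60.5 in the Pcgf5KO pair, and 76.0 and 74.8 in the DKO pair. It followed the order of Stard4, fell by 0.52 ± 0.10 in Pcgf5KO (adjusted p = 0.0266) and had an interaction of 0.71 ± 0.13 (adjusted p = 0.0170), the only gene among 22 tested of elongation, activation and glycerolipid synthesis to pass in either comparison. Idh1, a cytosolic source of NADPH, measured 194 CPM in WT, 142 to 154 in the single knockouts, and 167 and 162 in DKO. It fell by 0.41 ± 0.09 in Pcgf5KO (adjusted p = 0.0383), with an interaction of 0.53 ± 0.11 (adjusted p = 0.0368). The NADPH-producing enzymes of the pentose phosphate route went another way. Pgd measured 489 CPM in WT, 519 and 570 in the Pcgf3KO pair, 681 and 679 in the Pcgf5KO pair, and 369 and 475 in the DKO pair, and was lower in DKO than in Pcgf5KO by -0.69 ± 0.11 (adjusted p = 0.0228). G6pdx was lower in the same comparison by -0.61 ± 0.13 (adjusted p = 0.0466), with 96.9 and 133 CPM in DKO against 175 and 176 in Pcgf5KO. Fntb, a subunit of protein farnesyltransferase and the only one of 13 tested isoprenoid-branch genes to pass, rose by 0.51 ± 0.10 in Pcgf5KO (adjusted p = 0.0319) and had an interaction of -0.88 ± 0.13 (adjusted p = 0.00904). Leaving out any 1 of the 4 single-knockout libraries ended all the calls named for these genes (highest adjusted p per call 0.0933 to 0.390), except that Abcg1 against WT was lost only without a Pcgf5KO library (highest adjusted p = 0.120).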
